A study of Mus musculus with 15 samples.

Results

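The clustered protocadherins are a family of neuronal cell adhesion genes that lie side by side in the alpha, beta and gamma clusters on mouse chromosome 18. Members were taken by symbol: Pcdh followed by a, ac, b, ga, gb or gc and a number. This gave 58 Ensembl identifiers among the 56748 in the count table, 14 in the alpha cluster, 22 in the beta cluster and 22 in the gamma cluster. The 58 identifiers carried 57 symbols, since 2 of them are both named Pcdha11. ENSMUSG00000007440 begins where RefSeq places Pcdha10 and ENSMUSG00000102206 where RefSeq places Pcdha11 (assembly GRCm38.p6), so both are given with their identifier.

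Total RNA was sequenced from the cortex of wild-type C57BL/6J mice, 3 hours after a single session of repetitive transcranial magnetic stimulation. Intermittent theta-burst stimulation (iTBS), which delivers bursts of magnetic pulses with pauses, was given to 5 mice. Continuous theta-burst stimulation (cTBS), without pauses, was given to 5 mice, and 5 mice had sham stimulation. The sample titles call the tissue somatosensory and the design text calls it sensorimotor, each library came from 1 animal, and the labels give no ages.

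Each alpha and gamma gene has its own promoter and a long first exon, called variable, which codes for the extracellular and transmembrane part of the protein. In the alpha and gamma clusters that exon is spliced to a set of constant exons shared by the whole cluster, while beta genes have 1 exon and no shared end. Neurons choose among the promoters with the help of CTCF, cohesin and DNA methylation, and the combination of isoforms at the surface lets a neuron tell its own branches from those of its neighbours. The C-type genes at the end of the alpha and gamma clusters differ from the rest in being switched on in a more uniform manner across neurons.

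The shared exons set how much of each gene could be counted. In the GENCODE M21 annotation, alpha members shared 38.9% to 91.4% of their exonic bases with other genes on the same strand (median 53.6%). The gamma members shared 31.5% to 66.8% (median 44.7%) and the beta members 0 to 9.67% (median 0). Genes on the opposite strand also overlapped 13 members, 4 in the alpha, 1 in the beta and 8 in the gamma cluster. A member's count therefore stands for its variable exon and any intron that an annotated transcript of it retains, and the amount of the shared ends cannot be given to any member.

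Pcdhga10, an A-type gamma gene, was at 0 counts in all 15 libraries. It has 2613 bases to itself on its own strand, but 0 once the antisense gene Gm26672 is taken into account. Over the whole table, 247 of 251 genes of this kind (at least 200 bases free on their own strand, 0 on both strands) were at 0 in every library. Among genes with at least 200 bases free on both strands it was 7256 of 46958, or 15.5%. The 0 of Pcdhga10 is thus the 0 of a class of genes in this table and is not a measured level. Pcdha4 had 404 free bases and 3 to 16 counts per library, and most of its 50-base windows outside the constant exons (80.8%) also occurred in another gene.

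Outside the constant exons, part of the sequence of a member also occurs in other genes, either because the same bases are annotated to both or because the sequence is repeated. The share of such 50-base windows had a median of 14.7% in the alpha, 4.46% in the beta and 2.08% in the gamma cluster. The highest gamma members were Pcdhgb1 and Pcdhga4 with 38.9% and 38.3%; they are annotated as sharing more exonic bases (3154 and 3157) than Pcdhga2 (2116), for example, and how reads were split between genes was not tested.

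Together the members held 11238 to 31878 counts per library, 0.0683% of all counts, in libraries of 15385070 to 47807723 counts. Of the 58 members, 55 passed the expression filter, 13 alpha, 21 beta and 21 gamma; Pcdha4, Pcdhb1 and Pcdhga10 did not. Levels are given as CPM, counts scaled to library size. In whole tissue, fewer cells of a type and less RNA per cell cannot be told apart. Cortical excitatory neuron markers summed to 3562 to 5187 CPM in every library, and markers of striatal projection neurons, which lie below the cortex, to 185.9 to 819.5 CPM. The mean level of 11 noncoding RNAs that stay in the nucleus, called the nuclear RNA level here, ran from 5.82 to 7.80 (log2 CPM). It was 6.26 to 7.80 in sham, 6.77 to 7.72 in iTBS and 5.82 to 6.98 in cTBS.

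To compare members, the level of each was divided by its free length, the exonic bases not covered by any other gene on either strand, for the 56 members with at least 1000 such bases. Of the 5 C-type genes, 3 were at the top. Pcdhgc5, a gamma C-type gene whose protein binds a GABA-A receptor subunit, was at 32.7 ± 3.37 CPM per kb (SD, n = 15). Pcdhac2, the alpha C-type gene used by serotonergic axons to space their endings, was at 18.6 ± 1.55, and Pcdhgc3, whose protein binds the Wnt regulator Axin1, was at 10.2 ± 1.06 CPM per kb. The lowest library of Pcdhgc5 (27.7 CPM per kb) lay above the highest of Pcdhac2 (21.3), and the lowest of Pcdhac2 (15.8) above the highest of Pcdhgc3 (11.98).

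The other C-type genes were not set apart in this way. Pcdhgc4, the gamma isoform that neurons need for survival, was at 3.48 ± 0.241 CPM per kb and ranked 22 of 56. Pcdhac1 was at 2.51 ± 0.270 and ranked 27. In the order of all 56 levels, 53 of the 55 pairs of neighbours overlapped between libraries, and the exceptions were the steps from Pcdhgc5 to Pcdhac2 and from Pcdhac2 to Pcdhgc3. The second step depends on the length used.

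**Figure D1:**
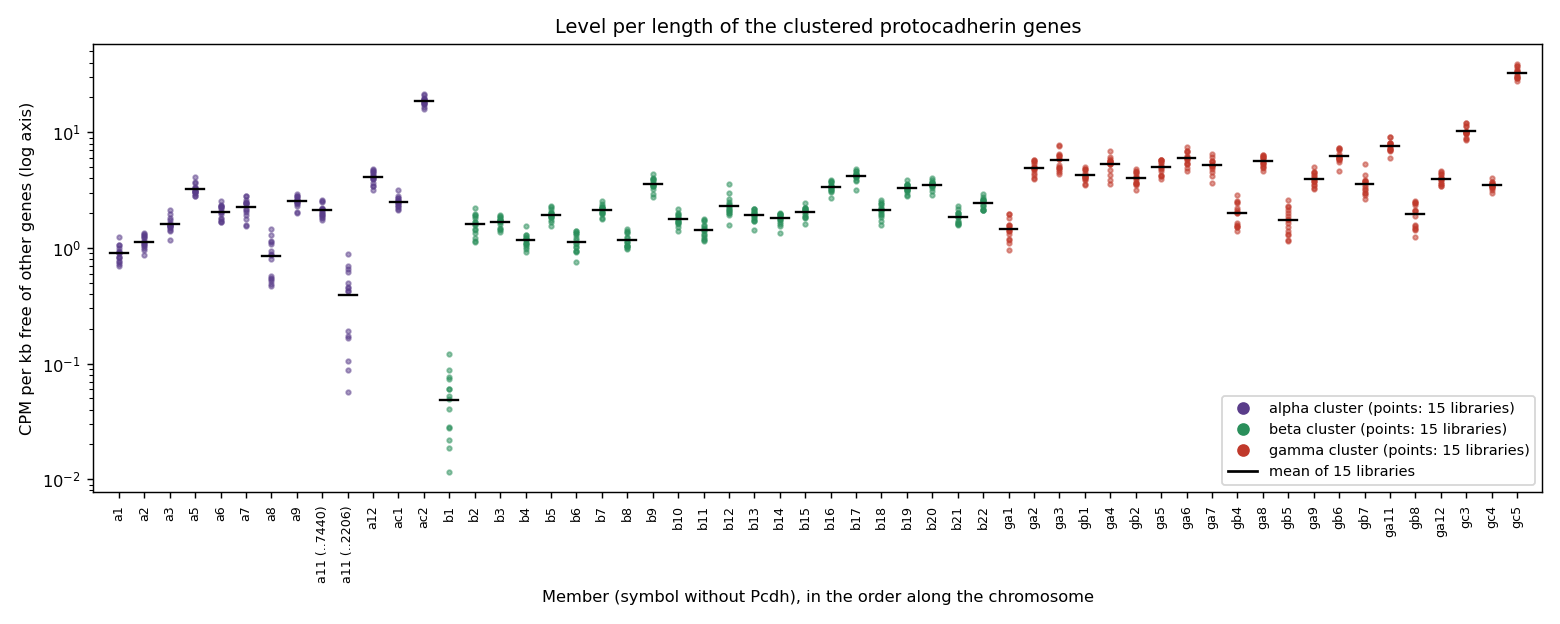
Level of 56 clustered protocadherin genes in CPM per kb of free length (log axis), in their order along the chromosome; points are the 15 libraries and bars their mean. Pcdhac2 and Pcdhgc5 stand above the rest of their clusters and Pcdhb1 below, and the iTBS 1 library of Pcdhb1, at 0, cannot be drawn on the log axis.

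As a set, gamma members were at the highest levels per length. The median over all members with a level was 4.92 CPM per kb in the gamma, 2.12 in the alpha and 1.92 in the beta cluster. After Pcdhgc3, the next in the order were the gamma genes Pcdhga11 (7.65 ± 0.829 CPM per kb), Pcdhgb6 (6.22 ± 0.748), Pcdhga6 (5.97 ± 0.777) and Pcdhga3 (5.74 ± 1.04), whose ranges overlapped. The leading beta genes, single-exon adhesion genes, were Pcdhb17 at 4.21 ± 0.395, Pcdhb9 at 3.59 ± 0.415 and Pcdhb20 at 3.52 ± 0.286 CPM per kb. The leading alpha genes beside Pcdhac2 were Pcdha12 at 4.08 ± 0.503, Pcdha5 at 3.24 ± 0.357 and Pcdha9 at 2.53 ± 0.269 CPM per kb.

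The lower end held single members of each cluster. Pcdhb1, the first beta gene, was at 0.0487 ± 0.0327 CPM per kb with 0 to 9 counts per library. Pcdha11 (ENSMUSG00000102206) was at 0.393 ± 0.255 and Pcdha8 at 0.851 ± 0.322 CPM per kb. In the gamma cluster the lowest of the 21 levels was that of Pcdhga1, the first gamma gene, at 1.46 ± 0.298 CPM per kb.

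The free length itself moved some of these levels. Only 2622 of the 4606 free bases of Pcdhgc5 lie in protein-coding transcripts, the rest in a transcript with a retained intron. With the whole count divided by the coding part alone, Pcdhgc5 was at 57.4 and Pcdhgc3 at 17.6 CPM per kb, close to Pcdhac2 at 18.6. Counts from the other free bases were not taken out, so these values are upper limits for the coding part. By that length Pcdhga12 moved from rank 18 to 5 and Pcdhgb5 from 43 to 26. When only overlaps on the own strand were removed, Pcdhgc3 was at 5.49 CPM per kb and ranked 6, and Pcdhga11 at 3.64 and ranked 16. Pcdhgc5 and Pcdhac2 ranked 1 and 2 with each of the 3 lengths. Pcdha11 (ENSMUSG00000102206) has 54 free bases in coding transcripts out of 1268, so most of the bases that can give it counts lie in noncoding transcripts of its locus.

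As a share of the summed level per kb of its own cluster, Pcdhac2 made up 44.0% ± 3.2 of the alpha cluster (SD, n = 15), where an equal split among 13 members would give 7.7%. Pcdhgc5 made up 26.2% ± 2.0 of the gamma cluster, where an equal split among 21 would give 4.8%. In the beta cluster no member came near such shares, and the highest was Pcdhb17 at 9.0% ± 0.5 against 4.5% for an equal split among 22. By group, Pcdhac2 was at 42.6% ± 3.0 in sham, 42.8% ± 3.0 in iTBS and 46.6% ± 2.5 in cTBS (SD, n = 5), and Pcdhgc5 at 26.4% ± 2.2, 26.0% ± 2.7 and 26.2% ± 1.1.

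Between animals most members varied little. The coefficient of variation over the 15 libraries had a median of 12.5% in the alpha, 10.997% in the beta and 12.5% in the gamma cluster. Counting error alone gives medians of 8.26%, 6.89% and 5.22% at these depths. Among the 55 that passed the filter, the most variable members were Pcdha11 (ENSMUSG00000102206) at 64.7% and Pcdha8 at 37.9% in the alpha cluster. In the gamma cluster they were the B-type genes Pcdhgb5 (25.3%), Pcdhgb8 (23.7%) and Pcdhgb4 (22.7%), and in the beta cluster Pcdhb12 (20.6%) and Pcdhb2 (19.95%).

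The comparison across groups asked whether the clusters differed 3 hours after either protocol. The summed level of each cluster was nearly the same in the 3 groups. The alpha cluster was at 110 ± 6.43 CPM in sham, 112 ± 4.88 in iTBS and 109 ± 3.62 in cTBS (SD, n = 5). The gamma cluster was at 376 ± 22.8 in sham, 382 ± 20.3 in iTBS and 379 ± 31.3 CPM in cTBS. The beta cluster was at 199.6 ± 6.57 in sham, 203.6 ± 8.59 in iTBS and 192.3 ± 11.7 CPM in cTBS, and all 3 groups overlapped in every cluster.

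Among the subfamilies, the alpha genes without the C-type had a lower mean in cTBS. They summed to 51.2, 46.8, 49.6, 47.1 and 50.9 CPM in sham 1 to 5, to 44.2, 50.4, 52.4, 51.1 and 49.3 in iTBS and to 43.1, 41.0, 44.3, 44.1 and 49.01 in cTBS. All cTBS libraries but cTBS 5 lay below every sham library, and the means were 49.1 ± 2.04 in sham, 49.5 ± 3.15 in iTBS and 44.3 ± 2.93 CPM in cTBS (SD, n = 5). The alpha C-type pair was at 61.1 ± 6.23 in sham, 62.6 ± 4.65 in iTBS and 64.6 ± 3.498 CPM in cTBS, and the groups overlapped. Gamma B-type genes were at 64.3 ± 6.40 CPM in sham, 69.6 ± 8.80 in iTBS and 60.2 ± 6.08 in cTBS. Gamma A-type genes (132.1 ± 4.39, 133.2 ± 10.5 and 134.3 ± 13.2 CPM) and gamma C-type genes (179.8 ± 19.0, 179.5 ± 18.0 and 184.5 ± 15.2 CPM) differed by less than their spread.

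**Figure D2:**
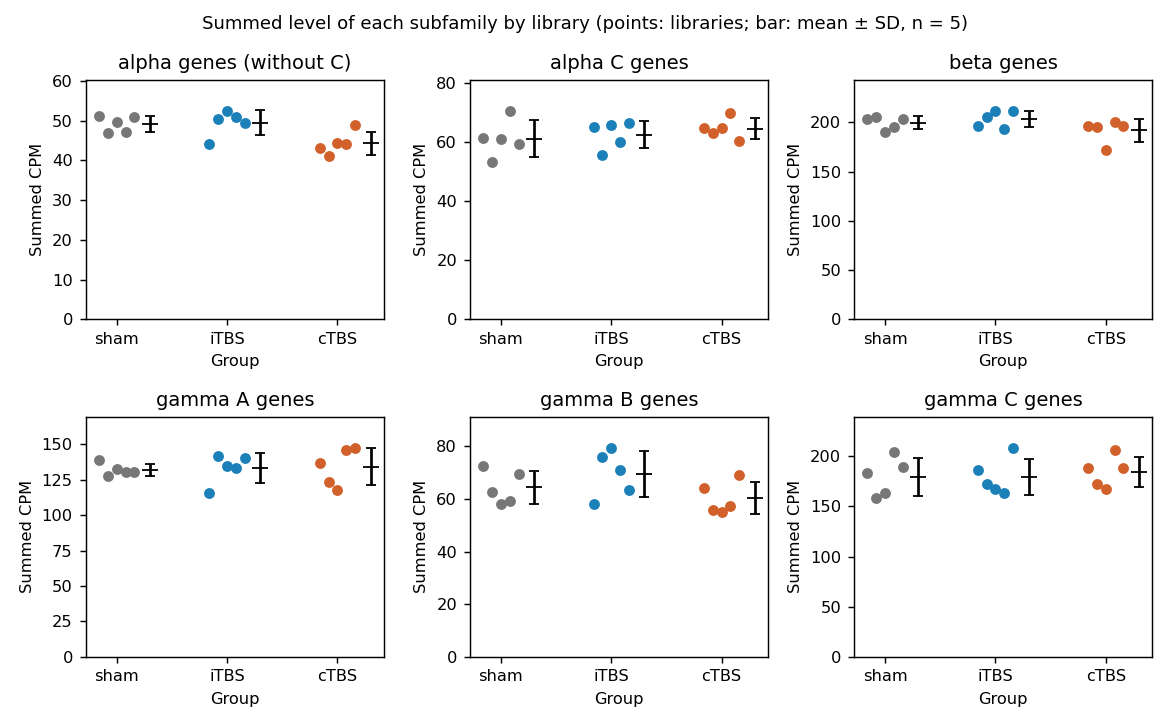
Summed level in CPM of each subfamily in the sham, iTBS and cTBS groups; points are libraries and bars the mean ± SD of 5 libraries. Each pair of groups overlaps in each panel, and gamma C-type genes, at 158.5 to 208.0 CPM, hold the largest sum next to the beta genes.

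The C-type genes that dominate the clusters showed no difference between groups beyond their spread. Pcdhgc5 was at 152, 128, 135, 173 and 161 CPM in sham 1 to 5, at 156, 145, 137, 136 and 178 in iTBS 1 to 5 and at 154, 142, 135, 171 and 155 in cTBS 1 to 5. Its log2 fold change against sham was 0.01 after iTBS (95% interval -0.19 to 0.21) and 0.01 after cTBS (-0.18 to 0.21). Pcdhac2 was at 55.1, 47.8, 54.1, 64.5 and 52.7 CPM in sham, at 59.2, 49.8, 57.6, 52.8 and 59.9 in iTBS and at 59.1, 56.4, 58.0, 63.7 and 54.2 in cTBS. The highest and the lowest value were both in sham libraries, and the intervals of its log2 fold change against sham were -0.14 to 0.19 after iTBS and -0.07 to 0.25 after cTBS.

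After iTBS, Pcdhgb2, a B-type gamma gene, was the member with the smallest p against sham. It was at 11.04, 10.1, 9.73, 11.4 and 9.97 CPM in sham 1 to 5 and at 11.99, 13.3, 12.5, 12.5 and 12.9 CPM in iTBS 1 to 5. Every iTBS library lay above every sham library, with a log2 fold change of 0.27 ± 0.08 (SE), which did not pass the adjustment over all genes (edgeR quasi-likelihood test, unadjusted p = 0.00249, adjusted p = 1.00). Meningeal fibroblast markers, 5 of 5 with a fold change above 0 (49.5% of all genes), summed to 59.0 to 167.5 CPM in iTBS and 43.2 to 76.1 in sham. Of these, Col1a1 was at 90.4 CPM in iTBS 3 and 22.0 to 49.8 in the other iTBS libraries. Fold changes were also above 0 for 5 of 5 endothelial and mural and 6 of 6 striatal projection neuron markers. They were above 0 for 0 of 5 astrocyte and 0 of 5 oligodendrocyte markers. The part of these cell types in the difference of Pcdhgb2 was not tested. Pcdhgb2 was 1 of 55 members whose groups did not overlap in this comparison, against 0.452% of all genes tested (0.243% higher, 0.209% lower).

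Pcdhb13, a beta gene, was at 6.44, 5.34, 6.35, 6.92 and 7.25 CPM in sham and at 7.08, 7.995, 6.77, 7.996 and 8.04 CPM in iTBS. The groups overlapped, and the log2 fold change was 0.23 ± 0.10 (SE; edgeR, unadjusted p = 0.0315, adjusted p = 1.00). Next by p were Pcdhgc4 (log2 fold change -0.13), Pcdhga1 (-0.29) and Pcdhb22 (0.15), each with an interval that held 0.

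By edgeR, 0 of 55 members passed for iTBS against sham, where 0.00% of all genes passed. At an unadjusted p under 0.05 there were 2 members, both higher (1.93% of all genes, 0.952% higher and 0.974% lower). The other tools, DESeq2, limma-trend on the variance-stabilized values and limma-voom with sample weights, also called 0 members. Of the 55 members, 33 had a fold change above 0, against 49.5% of all genes, and the median log2 fold change was 0.03 against -0.00 over all genes. The 95% interval lay within 0.5 on either side of 0 for 51 of 55 members and within 1 for 54.

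**Figure D3:**
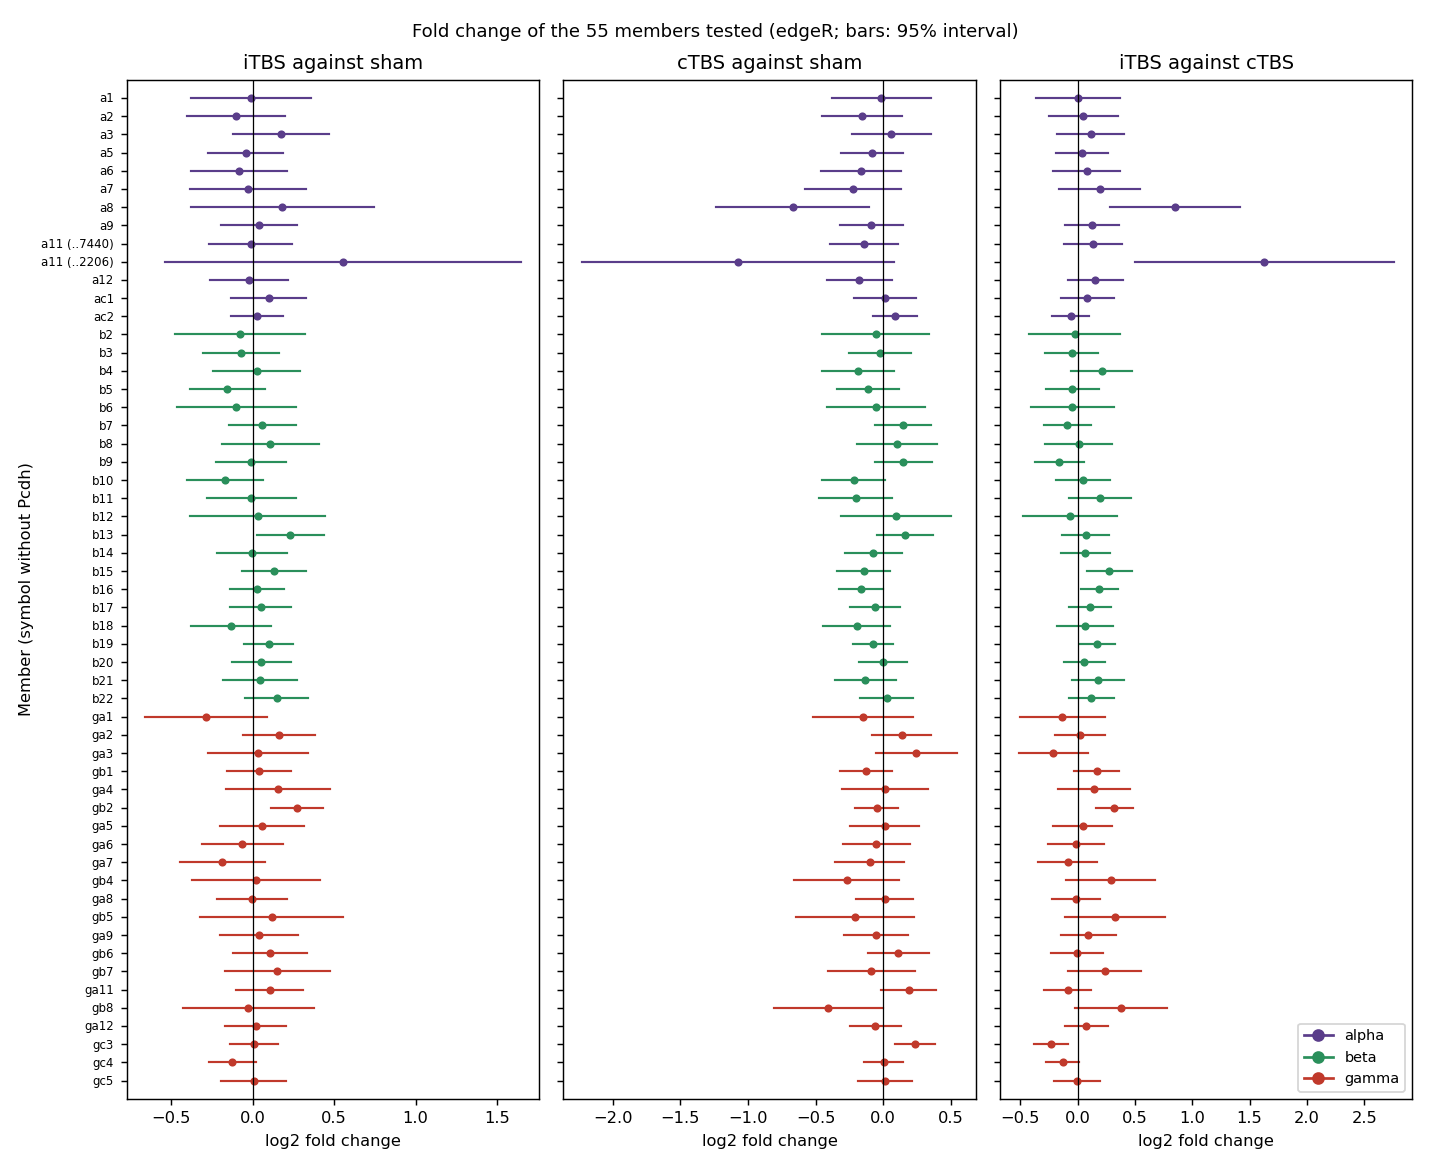
log2 fold change of the 55 members tested in the 3 comparisons, with the 95% interval from edgeR, in chromosome order and coloured by cluster. Most intervals hold 0 in each panel, and those of Pcdha8 and Pcdha11 (ENSMUSG00000102206) are the widest.

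Between cTBS and sham, members differed in both directions without any passing the adjustment. Pcdhgc3 was at 18.1, 18.3, 16.3, 18.5 and 16.1 CPM in sham 1 to 5, at 18.0, 15.6, 18.3, 17.7 and 18.3 in iTBS and at 21.8, 18.1, 20.8, 20.5 and 21.8 in cTBS. All cTBS libraries but cTBS 2 lay above every sham library, and the log2 fold change against sham was 0.24 ± 0.07 (SE; edgeR, unadjusted p = 0.00346, adjusted p = 0.144). Pcdhga11, an A-type gamma gene, was at 10.2 ± 0.767 CPM in cTBS against 8.95 ± 0.937 in sham (log2 fold change 0.19, edgeR, adjusted p = 0.226).

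On the lower side, Pcdha8, an alpha gene, was at 2.19, 2.79, 2.34, 1.29 and 2.83 CPM in sham 1 to 5, at 1.33, 2.70, 3.61, 3.23 and 2.17 in iTBS and at 1.41, 1.37, 1.21, 1.16 and 2.01 in cTBS. The cTBS libraries other than cTBS 5 lay low together with sham 4 and iTBS 1, and the log2 fold change of cTBS against sham was -0.67 ± 0.27 (SE; edgeR, unadjusted p = 0.0237, adjusted p = 0.158). Pcdhgb8, a B-type gamma gene that the annotation classes as a polymorphic pseudogene, was at 5.25, 5.30, 6.30, 4.73 and 5.17 CPM in sham and at 3.69, 3.13, 3.56, 3.63 and 6.13 in cTBS. Of its cTBS libraries 4 lay below every sham library and cTBS 5 did not (log2 fold change -0.41 ± 0.19, SE; edgeR, adjusted p = 0.200). Pcdhb16, a beta gene, was at 18.2 ± 1.82 CPM in sham and 16.3 ± 1.33 in cTBS (log2 fold change -0.17, edgeR, adjusted p = 0.200).

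By edgeR, 0 of 55 members passed for cTBS against sham, where 0.00% of all genes passed. The smallest adjusted p of any gene by edgeR was 0.144, and genes outside the clusters shared it. At an unadjusted p under 0.05 there were 4 members, 1 higher and 3 lower, while 24.4% of all genes were at that level (6.80% higher, 17.6% lower). No member had groups without overlap, as had 1.34% of all genes (0.626% higher, 0.713% lower). The fold change was above 0 for 19 of 55 members, against 46.5% of all genes, with a median of -0.06 against -0.02 over all genes. The members' median was 0.01 without cTBS 3 and 0.0015 with no expression filter. The intervals lay within 0.5 on either side of 0 for 46 members.

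The number of calls in this comparison turned on the tool and on sham 4. Limma-voom with quality weights called 4 members (Pcdhgc3 higher; Pcdha8, Pcdha11 (ENSMUSG00000102206) and Pcdhgb8 lower) among 23.7% of all genes, and DESeq2 and limma-trend called 0. Without sham 4, the sham library with the lowest nuclear RNA level, edgeR called 3 (Pcdhgc3 and Pcdhga2 higher, Pcdha8 lower) among 24.4% of all genes.

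Between the protocols, Pcdhgb2 again had the smallest p. Its cTBS libraries were at 10.04, 9.83, 8.78, 10.6 and 11.3 CPM, below the lowest iTBS library at 11.99. The log2 fold change of iTBS against cTBS was 0.32 ± 0.08 (SE; edgeR, unadjusted p = 0.000608, adjusted p = 0.0838). This comparison shares the iTBS libraries with that against sham.

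Pcdhgc3 and Pcdha8, described above, differed between iTBS and cTBS in opposite directions, at -0.23 ± 0.07 and 0.85 ± 0.27 (log2 fold change, SE; edgeR, adjusted p = 0.0838 and 0.0839). Pcdha11 (ENSMUSG00000102206) was at 0.244, 0.629, 0.886, 1.13 and 0.830 CPM in iTBS, at 0.218, 0.213, 0.112, 0.0722 and 0.570 in cTBS and at 0.540, 0.542, 0.780, 0.133 and 0.585 in sham. It rests on 3 to 36 counts per library, and its log2 fold change was 1.63 with an interval from 0.50 to 2.76 (edgeR, adjusted p = 0.0854). Pcdhb15, a beta gene, was at 6.89, 6.17, 6.01, 6.15 and 6.22 CPM in iTBS and 5.17, 5.45, 4.49, 5.08 and 5.83 in cTBS, with no overlap (log2 fold change 0.27 ± 0.09, SE; edgeR, adjusted p = 0.0879).

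By edgeR, 0 of 55 members passed for iTBS against cTBS, where 0.00% of all genes passed. At an unadjusted p under 0.05 there were 7 members, 6 higher in iTBS and 1 lower, while 30.6% of all genes were at that level (20.0% higher, 10.6% lower). The groups did not overlap for 3 members, Pcdhgb2, Pcdhb15 and Pcdhb16, all higher in iTBS, as for 3.92% of all genes (2.22% higher, 1.70% lower). The fold change was above 0 for 37 of 55 members (12 of 13 alpha, 14 of 21 beta and 11 of 21 gamma), against 53.9% of all genes. The median was 0.07 against 0.03 over all genes.

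With edgeR, the smallest adjusted p of any gene in this comparison was 0.0838, and genes outside the clusters shared it. Values near it are therefore not particular to these members. The calls depended on the tool and on single libraries. DESeq2 called 4 (Pcdhgb2, Pcdha8 and Pcdha11 (ENSMUSG00000102206) higher in iTBS, Pcdhgc3 lower) among 5.74% of the 45315 genes with counts. Limma-voom with quality weights called these and Pcdhb15 and Pcdhgb8 (29.8% of all genes), and limma-trend called 0. Leaving out sham 4 (15.5% of all genes) or iTBS 1 (19.1%), edgeR called the same 4 as DESeq2. Without cTBS 5 it called 5 (14.4% of all genes): Pcdhgb2, Pcdha8, Pcdha11 (ENSMUSG00000102206), Pcdhb15 and Pcdhgb8. Under these settings the members were called no more often than 10.9%, which was below the share of all genes with edgeR and limma-voom. With DESeq2, 7.02% of members were called. The DESeq2 share of 5.74% of all genes is over genes with counts, including those that fail the expression filter. Nearly all members pass that filter, so these DESeq2 shares cannot be set against each other.

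**Figure D4:**
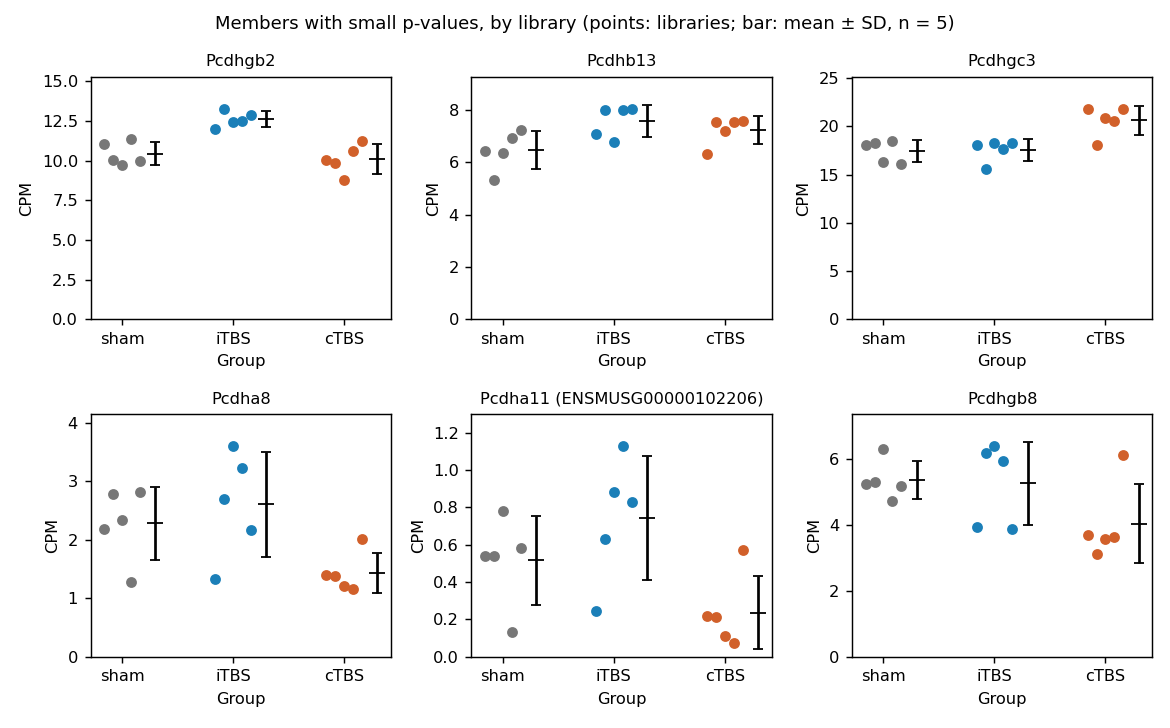
Level in CPM of 6 members with small p-values in sham, iTBS and cTBS libraries; points are libraries and bars the mean ± SD of 5. Pcdhgb2 is higher in each iTBS library (at least 11.99 CPM) than in any other library, and in Pcdha8 and Pcdha11 (ENSMUSG00000102206) sham 4, iTBS 1 and the cTBS libraries other than cTBS 5 lie low.

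Nuclear RNA and markers of several cell types differed in mean between cTBS and sham. Of the 11 nuclear-retained RNAs, 10 were lower in cTBS than in sham, 9 at an unadjusted p under 0.05 (edgeR, 17.6% of all genes). Their summed level was 2332 to 6425 CPM in cTBS, 3390 to 14926 in sham and 5335 to 14297 in iTBS. Markers of inhibitory neurons (6 of 6), astrocytes (5 of 5), oligodendrocytes (5 of 5), microglia (5 of 5) and striatal projection neurons (6 of 6) had fold changes above 0 in cTBS against sham. Each of these markers was above 0 CPM in every library. At an unadjusted p under 0.05 (edgeR), 3, 1, 1, 2 and 1 of them were higher, against 6.80% of all genes. Fold changes were above 0 for 3 of 5 excitatory neuron, 3 of 5 endothelial and mural and 4 of 5 oligodendrocyte precursor markers. Meningeal fibroblast markers were above sham for 5 of 5 genes after cTBS and after iTBS (with 2 and 3 at an unadjusted p under 0.05). Over all genes, 46.5% lay above 0 and 6.80% were higher at that p after cTBS, and 49.5% and 0.952% after iTBS. Thalamic neuron markers were above sham for 0 of 5 genes after either protocol (medians -0.62 and -0.48), and choroid plexus markers for 1 of 5 after cTBS and 0 of 5 after iTBS (-0.47 and -1.06). Sham 2 held the highest level of each thalamic marker, such as Prkcd at 65.1 CPM (4.46 to 6.04 in the other sham libraries). Ttr, of the choroid plexus, was at 233.6 and 248.6 CPM in sham 2 and sham 5 and 1.44 to 10.5 in the other sham libraries. It was also at 232.3 CPM in cTBS 4. These medians therefore need not stand for the whole sham group. At an unadjusted p under 0.05 (edgeR), 1 thalamic and 1 choroid plexus marker were lower after cTBS (17.6% of all genes). After iTBS, 2 thalamic markers were lower at that p (0.974% of all genes). Oligodendrocyte markers summed to 2100 to 3328 CPM in cTBS and 1930 to 2803 in sham, and striatal markers to 278.7 to 819.5 and 185.9 to 626.8 CPM. In iTBS against cTBS, 10 of 11 nuclear-retained RNAs were higher, 9 at an unadjusted p under 0.05 (edgeR, 20.0% of all genes). Fold changes were above 0 for 1 of 6 inhibitory neuron and 0 of 6 striatal markers (53.9% of all genes). They were above 0 for 0 of 5 astrocyte, 0 of 5 oligodendrocyte and 0 of 5 microglia markers. At that p, 3, 0, 3, 4 and 2 of these were lower (10.6% of all genes). Endothelial and mural markers lay above 0 for 5 of 5 and excitatory neuron markers for 3 of 5. The part of these cell types in the members' differences was not tested.

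For the nuclear RNA level, the slope of each gene on it within the groups was fitted over all genes with edgeR. At an adjusted p under 0.05, 9 of 55 members had a slope, 5 upward and 4 downward, 16.4% against 44.5% of all genes (28.4% upward, 16.1% downward). Upward slopes were found for Pcdha11 (ENSMUSG00000102206) (1.37 in log2 per log2 unit), Pcdha8 (0.65) and the B-type gamma genes Pcdhgb5 (0.45), Pcdhgb4 (0.39) and Pcdhgb8 (0.37). Downward slopes were found for Pcdhgc5 (-0.22), Pcdhac2 (-0.18), Pcdhb2 (-0.40) and Pcdhb9 (-0.19).

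Pcdha8, Pcdha11 (ENSMUSG00000102206), Pcdhgb8, Pcdhgb5 and Pcdhgb4, which had upward slopes, also had a lower mean in cTBS than in sham. Of those with downward slopes, Pcdhgc5, Pcdhac2 and Pcdhb9 had a higher mean in cTBS and Pcdhb2 a lower one. Pcdhb16, lower in cTBS as well, had a slope of -0.02. The nuclear RNA level itself was 5.82 to 6.98 in cTBS and 6.26 to 7.80 in sham. Group and nuclear RNA level therefore cannot be fully told apart. When the nuclear RNA level entered the fit as a covariate, the log2 fold change of cTBS against sham was -0.17 for Pcdha8 and -0.14 for Pcdhgb8, and that of iTBS against cTBS was 0.28 for Pcdha8 and 0.57 for Pcdha11 (ENSMUSG00000102206). Pcdhgb2 and Pcdhb13 were at 0.27 and 0.23 for iTBS against sham in that fit. Their slopes were -0.04 and -0.01, so the covariate could hardly move them, and their values do not test a part of nuclear RNA. Pcdhgc3 was at 0.18 for cTBS against sham. In this fit edgeR called 0 members and 0 genes in each comparison.

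**Figure D5:**
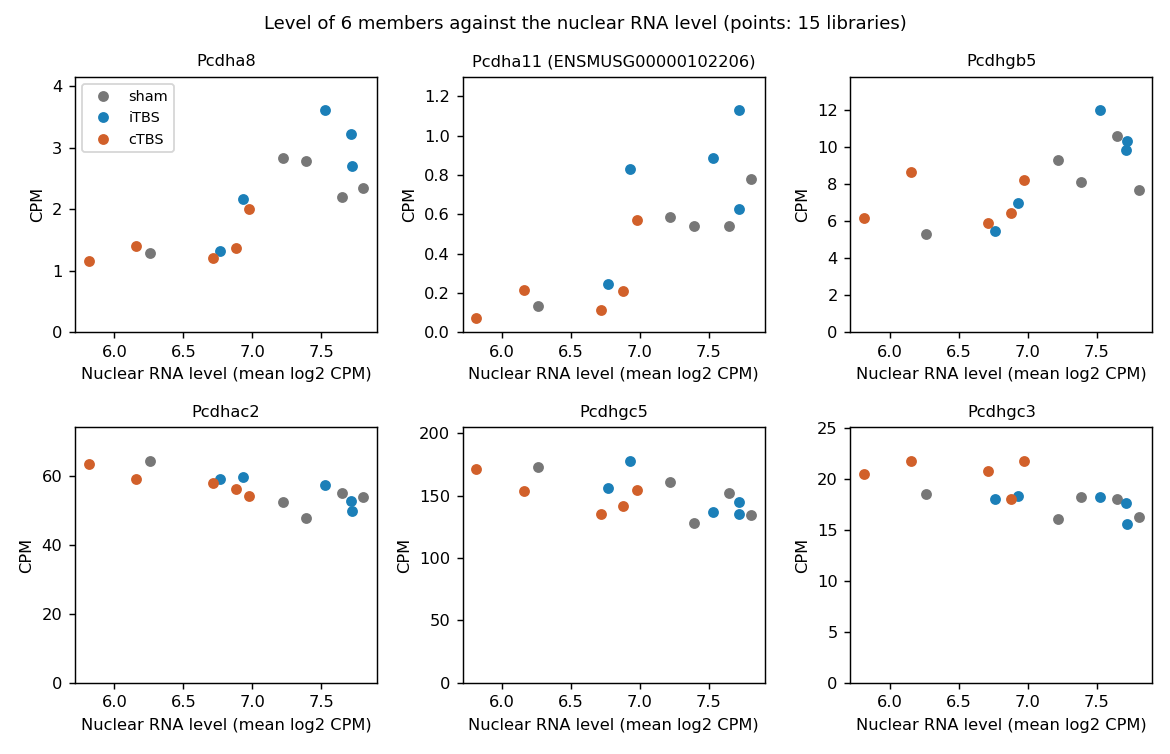
Level in CPM of 6 members against the nuclear RNA level (mean log2 CPM of 11 nuclear-retained RNAs) in 15 libraries, coloured by group. Pcdha8, Pcdha11 (ENSMUSG00000102206) and Pcdhgb5 are higher where the nuclear RNA level is higher, and Pcdhac2 and Pcdhgc5 somewhat lower.

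Other genes of the system gave the following counts, again with 0 passing by edgeR in any comparison. Among 25 regulators of promoter choice and chromatin at the clusters, the comparison of iTBS with sham had 0 at an unadjusted p under 0.05, that of cTBS with sham 3, all lower, and that of iTBS with cTBS 3 higher and 2 lower. Over all genes the shares were 1.93%, 24.4% (17.6% lower) and 30.6% (20.0% higher, 10.6% lower). They include Tet2, an enzyme that removes DNA methylation, at 82.3 ± 12.98 CPM in sham and 59.1 ± 10.4 in cTBS (log2 fold change -0.48, edgeR, adjusted p = 0.144), and Setdb1, a histone methyltransferase that shields the clusters, at 42.4 ± 4.36 and 36.3 ± 3.17 CPM (-0.22, edgeR, adjusted p = 0.154).

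Of 26 genes for binding partners and processing enzymes of these proteins, 24 had a fold change above 0 in cTBS against sham, with a median of 0.10, and 2 higher and 1 lower were at an unadjusted p under 0.05; over all genes 46.5% lay above 0, and 6.80% were higher and 17.6% lower at that p. In iTBS against cTBS it was 1 higher and 10 lower (20.0% and 10.6% of all genes), with a median of -0.13. There, 3 of 26 had a fold change above 0, against 53.9% of all genes. In iTBS against sham it was 0 higher and 1 lower (0.952% and 0.974% of all genes), with a median of -0.02. In that comparison 7 of 26 lay above 0, against 49.5% of all genes. Ptk2, the focal adhesion kinase that these proteins hold back, was at 184.5 ± 8.35 CPM in sham, 189.6 ± 10.3 in iTBS and 166.2 ± 6.63 in cTBS (iTBS against cTBS 0.19, edgeR, adjusted p = 0.0838). Axin1 was at 24.4 ± 1.49, 21.6 ± 1.17 and 25.4 ± 1.74 CPM (iTBS against cTBS -0.23, edgeR, adjusted p = 0.0838).

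Among 12 non-clustered protocadherins, single genes elsewhere in the genome without shared exons, the number at an unadjusted p under 0.05 was 1 between iTBS and sham, 2 between cTBS and sham and 3 between the protocols (1.93%, 24.4% and 30.6% of all genes). Pcdh20 was at 25.2 ± 0.866 CPM in sham, 29.1 ± 2.98 in iTBS and 33.4 ± 1.98 in cTBS (cTBS against sham 0.40, edgeR, adjusted p = 0.144). Pcdh15, an adhesion gene of hair cells and oligodendrocyte precursors, was at 34.0 ± 5.76 CPM in sham and 24.2 ± 2.59 in cTBS (-0.49, edgeR, adjusted p = 0.144). Of 12 tested genes that flank the clusters or lie between them, Taf7, which lies between the beta and gamma clusters, was at that level between iTBS and sham (log2 fold change -0.22), Wdr55 between cTBS and sham (0.31), and Hars and Arap3 between iTBS and cTBS (-0.25 and 0.33). These are 1, 1 and 2 genes beside the same shares of all genes.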

How the data were processed

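The authors deposited raw counts per Ensembl gene for 15 libraries and variance-stabilized values, which are log2-like. Per the submitters' processing notes, fastp, STAR, DESeq2 and the build GRCm39 were used; the sources used here do not give the counter, its strand setting or the annotation. Names and exon structure came from GENCODE M21 on GRCm38 by identifier (52073 of 56748 matched), so no coordinates or sequences are given. Members and lists were chosen with earlier results of these data known.

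Group differences were tested with edgeR 4.0.16 (R 4.3.3): quasi-likelihood test, TMM scaling, filterByExpr, 1 term per group, all 15 libraries, Benjamini-Hochberg adjustment over 22998 genes, threshold 0.05. The standard error is the log2 fold change over the square root of F. CPM used the tested-gene total times the TMM factor, and summed levels have no test. Named members were all C-type genes, the 3 highest and the lowest of each other subfamily by mean CPM, and the 5 smallest p-values per comparison; others were named after their values were seen. Alternatives were DESeq2 1.42.0, limma 3.58.1, other filters and scalings, covariates, the replicate number as a block and leaving out each library. The slope on the nuclear RNA level, the free-length minimum of 1000 bases and the other 2 lengths were chosen after the data were seen. The tests were checked on simulated counts.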

Additional observations from a re-analysis of the deposited data

Results flagged for a closer look

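In 189 sets of 5 libraries (the 55 members tested and 8 cluster or subfamily sums, by group), 12 held a library far from the other 4 in its group by Dixon's criterion, and chance gives about 5%. In cTBS, Pcdhb3 was at 5.68 CPM in cTBS 1 (others 6.47 to 6.63), Pcdhb13 at 6.31 CPM in cTBS 1 (7.21 to 7.57), Pcdhgb1 at 9.27 CPM in cTBS 1 (10.4 to 10.8), Pcdhb17 at 14.9 CPM in cTBS 3 (19.3 to 20.5) and Pcdhgb8 at 6.13 CPM in cTBS 5 (3.13 to 3.69). The summed beta cluster was at 171.7 CPM in cTBS 3 (195.6 to 201.0), where 3 of 21 beta members lay above their own median over all libraries. In sham, Pcdha5 was at 9.57 CPM in sham 3 (7.20 to 7.77), Pcdha7 at 4.10 CPM in sham 4 (5.20 to 5.50) and Pcdhb12 at 3.96 CPM in sham 5 (1.74 to 2.30). In iTBS, Pcdhb15 was at 6.89 CPM in iTBS 1 (6.01 to 6.22), Pcdhga7 at 9.33 CPM in iTBS 1 (12.95 to 13.3) and Pcdhgc3 at 15.6 CPM in iTBS 2 (17.7 to 18.3).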

How the results depend on the processing

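The 5 leading members by p in a comparison were chosen from these same libraries, so a kept sign among them is no independent support. None of them changed sign under the alternatives run. Values near 0 did: the members' median for cTBS against sham ran from -0.10 to 0.01, the summed alpha cluster from -0.20 to 0.02 for cTBS and -0.01 to 0.07 for iTBS against sham, the beta cluster from -0.000106 to 0.05 for iTBS against sham, and the gamma cluster from -0.03 to 0.05, -0.00353 to 0.05 and -0.02 to 0.06 for cTBS and iTBS against sham and between the protocols. For iTBS against sham, 0 members and 0 genes were called under each of the 25 alternatives. For cTBS against sham, DESeq2 called 359 genes and limma-voom with quality weights 4 members and 5461 genes, and leaving out 1 library gave 0 to 3 members and 0 to 5726 genes, the highest without sham 4. For iTBS against cTBS, DESeq2 called 4 members and 2599 genes, limma-voom 6 members and 6853 genes, and leaving out 1 library gave 0 to 5 members and 0 to 4474 genes. The cause was not tested. With the mean of log2 values in place of the sum, which weights weak members as strong ones, the alpha cluster was at -0.20 for cTBS against sham and 0.27 between the protocols (-0.02 and 0.04 with the sum). Deviations of same-numbered libraries correlated above 0.1 in 7 of 15 pairs (-0.56 to 0.72). Libraries with different numbers were not compared in this way, so these values cannot decide whether the replicate numbers pair the samples. With the replicate block, edgeR called 0 members in each comparison and 5 genes for iTBS against cTBS, against 0 without it. At these depths counting error limits Pcdha11 (ENSMUSG00000102206), Pcdha8 and Pcdha1 most among tested members. The printed intervals give the uncertainty of each estimate, and the smallest detectable difference was not computed.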
